A study of Mus musculus with 12 samples.

Results

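The stefin A genes of mouse chromosome 16 encode small cytosolic proteins that bind and block papain-like cysteine proteases such as cathepsins B, H, L and S. Humans carry a single stefin A gene, whereas the mouse carries a row of tandem copies, several of which are known for their transcripts in neutrophils and their precursors. EZH2 is the catalytic subunit of Polycomb repressive complex 2 and methylates lysine 27 of histone H3, a mark of silenced genes. NRas G12D is an activated form of the small GTPase NRas.

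6 of the 27998 gene columns were followed here, namely Stfa1, Stfa2, Stfa2l1, Stfa3, BC100530 and Gm5483. They belong to a cluster of 11 stefin A genes present in the tables. The 6 were picked with their UMI counts in these 12 libraries already known, those of the G12D/E2-KO granulocytes included. Their levels are therefore a description, without a test, and no threshold separated them from the other 5 genes.

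The series profiled c-Kit+ cells of mouse bone marrow by droplet-based single-cell RNA sequencing of transcript 3′ ends, which counts each captured molecule once through a unique molecular identifier (UMI). 4 genotypes were compared. WT mice lacked the Mx1-Cre transgene, E2-KO mice carried Mx1-Cre with Ezh2 f/f, G12D mice carried Mx1-Cre with NRas G12D+/-, and G12D/E2-KO mice carried Mx1-Cre with both alleles. Per the labels, all mice, WT included, were 8 to 12 weeks old when treated and received 5 injections of pIpC, an interferon-inducing double-stranded RNA that switches on Mx1-Cre in blood-forming cells and in other interferon-responsive tissues. The methods of the study give a younger age at treatment. Marrow was taken at T1 (2 weeks), T2 (2 months) and T3 (4 months) after pIpC, giving 1 library for each genotype at each time. The number of mice in a library is not given in the sources used here. The 3 libraries of a genotype thus differ in time as well as in animals, and n = 3 below counts libraries.

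The 12 libraries held 12636998 to 23646292 UMIs, and a cell held a median of 3780.5 to 6975.5 UMIs. The cell tables number the cells and hold no barcodes, so shared barcodes could not be counted, and cells were compared by their expression profiles instead. 2896 of the 5648 cells of the G12D T1 table (51.3%) matched a cell of the G12D/E2-KO T1 table, and 0 cells matched in the other 65 pairs of libraries. The matched cells had an Ezh2 level of 20.9 UMIs per 1000000 (CPM), against 86.3 CPM in the remaining G12D T1 cells and 20.7 CPM in the G12D/E2-KO T1 library. They were left out of G12D T1, which kept 2752 cells, and the levels of the members in granulocytes, the ratios of their sum to WT, the BC100530 to Stfa1 ratio and the numbers of genes called are also given as deposited. The other results use the kept cells only. Over the 32701 cells used, Ezh2 stood at 113 ± 17.1 CPM in WT and 90.3 ± 11.1 in G12D, against 30.1 ± 3.90 in E2-KO and 22.8 ± 2.31 in G12D/E2-KO (mean ± SD, n = 3). The 3′ reads need not come from the deleted exons, so this compares transcript levels only.

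Granulocytes were defined as cells in which S100a8, S100a9, Camp and Ngp together made up at least 1000 of 10000 UMIs. This gate held 450 to 1329 cells per library, 9949 in all. Its cells carried Ltf (2076 to 4571 CPM) and Lcn2 (5206 to 9113 CPM), secondary granule genes of maturing neutrophils. Mean Ltf was 4163 CPM in WT, 4219 in G12D, 3103 in E2-KO and 3113 in G12D/E2-KO. Mean Lcn2 was, in the same order, 8624, 8235, 5715 and 6904 CPM. Transcripts of other lineages were also present in the gate. The hemoglobin gene Hba-a1 lay between 76.9 and 532 CPM, against 2502 to 22179 CPM in the other cells. The platelet gene Pf4 lay between 3.47 and 40.3 CPM, the B cell gene Cd79a between 0.610 and 9.94 CPM, and the monocyte gene Csf1r between 0.440 and 3.18 CPM. Their part in the results was not tested. Kit, the gene the cells were enriched by, stood at 12.5 to 27.1 CPM in the gate and at 55.4 to 95.7 CPM in the other cells. Granulocytes made up 15.7% to 18.5% of the E2-KO libraries and 17.2% of the G12D/E2-KO library at T3, against 28.1% to 43.7% of the other 8.

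The 6 genes spread over chr16:36156811-36455392 (GRCm38, GENCODE vM21), 3 on each strand, and every one has 3 exons. Stfa1 (ENSMUSG00000071562) lies at chr16:36276951-36285373 on the plus strand. BC100530 (ENSMUSG00000071561, Cstdc5 in RefSeq) lies at chr16:36359382-36367748 on the minus strand. Stfa3 (ENSMUSG00000054905) lies at chr16:36450537-36455392 on the minus strand. Stfa2 (ENSMUSG00000022902) occupies chr16:36403992-36408457 on the minus strand, and its closest copy Stfa2l1 (ENSMUSG00000059657) occupies chr16:36156811-36161953 on the plus strand. Gm5483 (ENSMUSG00000079597, Cstdc4 in RefSeq) occupies chr16:36184212-36188111 on the plus strand. The whole cluster spans 335 kb and holds 10 protein-coding genes, every one of them a stefin A gene.

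The copies resemble each other closely, also in front of the gene. Among the 15 pairs of members the transcripts were 75.4% to 97.1% identical, with a median of 80.4%. Stfa1 and BC100530 were the closest pair, followed by Stfa2 and Stfa2l1 at 95.7%. The RefSeq promoter windows (GRCm38.p6, 250 bases before to 50 after the gene start, matched for all 6 members) were 70.3% to 96.4% identical. 2 runs of 13 bases occurred in all 6 windows on the strand of the gene, ACCTTTAAAACCC and, shortly after it, GATCATTTCTTCT. The first run, which contains a TATA-like TTTAAA, was found on either strand in 9 of 32817 promoter windows (0.0274%), those of the 6 members and of Csta3, Cstdc3 and Gm7260. The second was found in 10 windows (0.0305%), the same 9 and that of 1700010I02Rik. The bases up to the gene start follow for the 3 members whose start is the same in both annotations, with the first run in capitals, because they show how alike the copies are where transcription begins.
Stfa3, chr16:36455393-36455496, minus strand: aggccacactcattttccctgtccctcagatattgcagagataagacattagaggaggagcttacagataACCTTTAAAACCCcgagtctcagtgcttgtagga
Stfa2l1, chr16:36156705-36156810, plus strand: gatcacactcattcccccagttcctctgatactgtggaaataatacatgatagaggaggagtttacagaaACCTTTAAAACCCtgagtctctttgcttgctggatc
Gm5483, chr16:36184110-36184211, plus strand: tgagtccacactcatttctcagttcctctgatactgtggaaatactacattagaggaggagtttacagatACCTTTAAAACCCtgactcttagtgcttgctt
For the other three, a GENCODE transcript starts further upstream than the RefSeq one, by 197 bases in Stfa1, 94 in Stfa2 and 178 in BC100530. Only the 30 bases that end with the first run are shown for these, since they hold the most abundant members.
Stfa1, chr16:36277098-36277127, plus strand: aggaggagctttcggatACCTTTAAAACCC
BC100530, chr16:36367570-36367599, minus strand: aggaggagtttacagatACCTTTAAAACCC
Stfa2, chr16:36408383-36408412, minus strand: aggaggagcttacagaaACCTTTAAAACCC
The first run began 12 bases before the RefSeq start in BC100530 and 32 to 36 bases before it in the other members. Motifs in wide use among blood-cell factors were searched on both strands of the same windows as a description. GAGGAA, an ETS core as bound by PU.1, was in 6 of 6 windows and in 28.3% of all promoters. TGTGGT, the RUNX core, was in 6 of 6 and in 16.8% of all promoters. TTGCNNAA, a C/EBP-like motif, was in the windows of Stfa1 and BC100530 and in 10.8% of all promoters. The windows held 0 to 3 CpG dinucleotides, against a median of 7 over all promoters.

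Such likeness limits what a count for 1 copy means, since Cell Ranger counts a read for a gene only where it maps to 1 place. Of the windows of 75 bases in the last 300 bases of the transcript, 52.2% in BC100530 and 23.9% in Stfa1 also occurred in another stefin A transcript. The share was 26.5% in Gm5483, 10.2% in Stfa2, 9.73% in Stfa2l1 and 0% in Stfa3. The main partner was BC117090 for BC100530 (64 windows) and 2010005H15Rik for Gm5483 (60 windows), which are stefin A genes of the cluster outside the 6 members. Stfa3 is thus the member whose counts are the least open to sharing. The sum of all 6 genes is given throughout beside the single copies, but reads that map to more than 1 place are missing from it as well. The antisense gene Gm15845 overlaps BC100530 and had 3 UMIs in all libraries together.

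Stefin A transcripts were present at a low level in WT granulocytes, at 0.741 to 2.82 times that level in the single mutants, and many times higher in G12D/E2-KO granulocytes at each time point. In WT granulocytes the 6 genes summed to 17.4 CPM at T1, 34.3 at T2 and 18.2 at T3. E2-KO gave 49.1, 25.4 and 24.3 CPM, and G12D gave 22.5, 36.3 and 36.8 CPM. G12D/E2-KO gave 479, 143 and 1361 CPM. The lowest G12D/E2-KO library lay above the highest of the other 9, while the WT, E2-KO and G12D ranges overlapped. The means ± SD (n = 3) were 23.3 ± 9.55 CPM for WT from 362 UMIs, 31.9 ± 8.10 for G12D from 452, 32.9 ± 14 for E2-KO from 226, and 661 ± 629 for G12D/E2-KO from 6574. Matched by time point, G12D/E2-KO was 27.5, 4.15 and 74.7 times WT, a mean log2 ratio of 4.35 ± 2.12 (SD, n = 3). The spread among the 3 libraries of this genotype was large, and T2 was the lowest for every member. The highest library, T3, also stood apart in other genes of the gate. Its Chil3 level was 11301 CPM, against at most 4984 CPM in any other library, and its S100a8 (91833 CPM), S100a9 (68878 CPM) and Ltf (2076 CPM) were the lowest. Camp, Ngp and Lcn2 lay within the range of the other libraries. The part of this in the stefin A level was not tested. For E2-KO the ratios to WT were 2.82, 0.741 and 1.33, and for G12D they were 1.30, 1.06 and 2.02, and the ranges of both overlapped with that of WT. The E2-KO level at T1 was above every WT and G12D library. As deposited, with the shared cells, the G12D T1 sum was 285 CPM, of which BC100530 made up 158, Stfa1 62.4, Stfa3 38.8, Gm5483 11.5, Stfa2 7.99 and Stfa2l1 7.001 CPM. The mean log2 ratio of G12D to WT was then 1.71 in place of 0.49. The median gene had a log2 CPM ratio to WT of 0.04 in G12D, 0.15 in E2-KO and 0.21 in G12D/E2-KO.

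**Figure D1:**
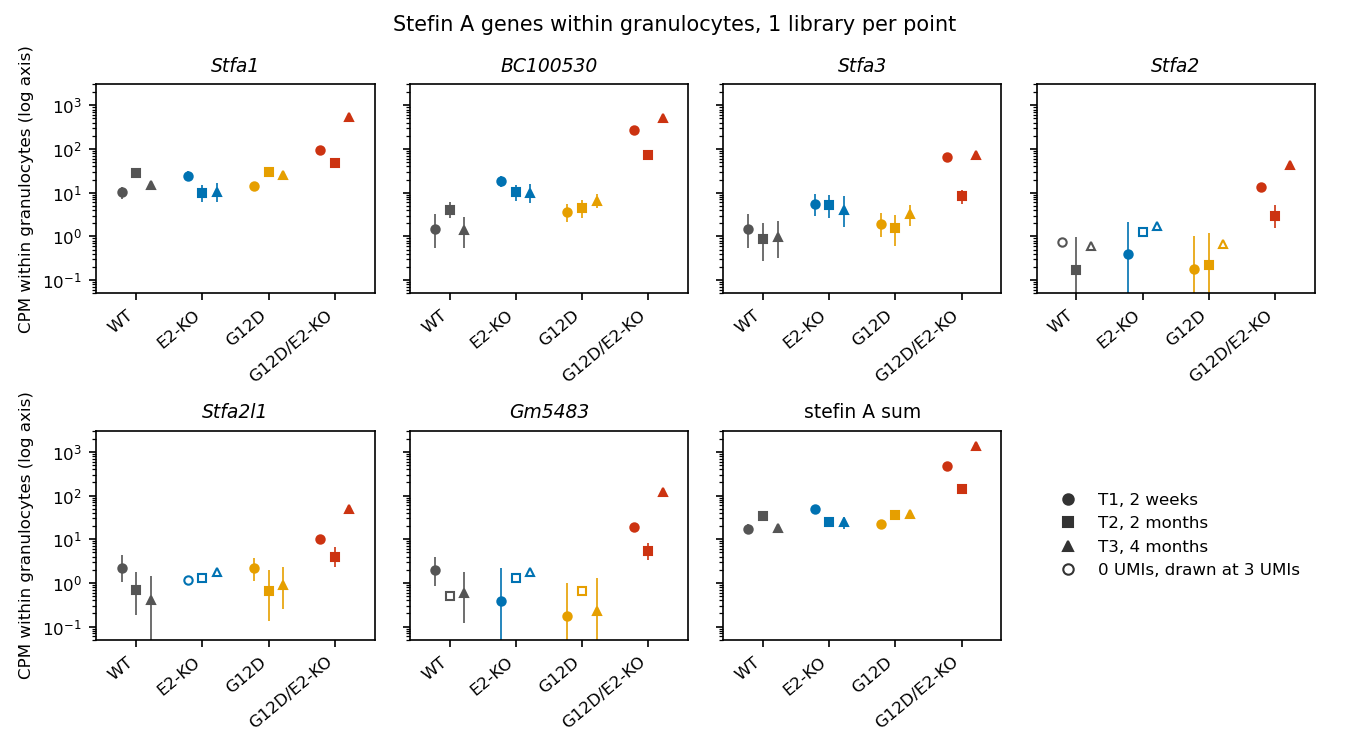
Level of each stefin A gene in granulocytes, in CPM on a log axis, with 1 point per library grouped by genotype (the single mutants between WT and G12D/E2-KO). Bars are exact 95% Poisson intervals of the UMI count and open points are libraries with 0 UMIs, drawn at the level of 3 UMIs. The 3 G12D/E2-KO libraries lie above all others for each gene, and BC100530 and Stfa3 are also higher in the E2-KO than in the WT libraries.

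Stfa1 was the main stefin A gene of WT granulocytes. It stood at 10.2, 28.5 and 14.9 CPM at T1, T2 and T3 in WT, at 24.3, 9.91 and 10.4 CPM in E2-KO, and at 14.5, 29.5 and 25.8 CPM in G12D. G12D/E2-KO granulocytes reached 97.5, 48.3 and 555 CPM, that is 9.56, 1.69 and 37.4 times WT. The ranges of WT, E2-KO and G12D overlapped, and E2-KO exceeded WT at 1 of 3 time points. At T2 the G12D/E2-KO level was 1.64 times that of G12D, the smallest ratio to G12D of any member.

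BC100530, the copy closest to Stfa1, was rarer than Stfa1 in WT and differed by more between genotypes. WT granulocytes had 1.49, 4.12 and 1.39 CPM, from 6, 24 and 7 UMIs. E2-KO granulocytes had 18.5, 10.3 and 9.83 CPM, from 47, 24 and 17 UMIs. G12D granulocytes had 3.58, 4.40 and 6.63 CPM, and G12D/E2-KO granulocytes 274, 73.7 and 520 CPM. The E2-KO libraries did not overlap with those of WT or G12D, while G12D overlapped with WT. The ratios to WT were 12.4, 2.51 and 7.09 in E2-KO, a mean log2 ratio of 2.59 ± 1.17 (SD, n = 3). They were 184, 17.9 and 375 in G12D/E2-KO, a mean log2 ratio of 6.74 ± 2.30. Compared with E2-KO instead of WT, G12D/E2-KO was 14.8, 7.12 and 52.9 times higher.

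Stfa3 followed the same order at lower counts. It had 1.49, 0.859 and 0.990 CPM in WT, 5.50, 5.17 and 4.05 CPM in E2-KO, and 1.97, 1.54 and 3.20 CPM in G12D. G12D/E2-KO granulocytes had 64.4, 8.21 and 72.6 CPM. E2-KO lay above G12D and G12D above WT without overlap, although the WT values rest on 5 or 6 UMIs each. E2-KO was 3.69, 6.02 and 4.09 times WT, a mean log2 ratio of 2.17 ± 0.37 (SD, n = 3), and G12D/E2-KO was 43.2, 9.57 and 73.3 times WT.

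Stfa2, Stfa2l1 and Gm5483 were near the limit of detection outside G12D/E2-KO. Stfa2 had 1 UMI in the WT granulocytes, 1 in E2-KO and 2 in G12D, all time points together. In G12D/E2-KO it had 108, 12 and 69 UMIs, or 13.7, 2.99 and 42.1 CPM, and the pooled ratio to WT was 208 with a counting interval of 36.9 to 8264. The WT UMI was at T2, and without WT T3 the ratio was 138. Gm5483 had 11, 1 and 2 UMIs in WT, E2-KO and G12D. It reached 19.1, 5.48 and 122 CPM in G12D/E2-KO, a pooled ratio to WT of 37.2 with an interval of 20.6 to 75.3. Of the 11 WT UMIs 8 were at T1, and of the 372 in G12D/E2-KO 200 were at T3. The ratio was 99.7 without WT T1, 22.7 without WT T2 and 19.6 without G12D/E2-KO T3. These intervals cover counting error only.

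Stfa2l1 was the only member with 0 UMIs in all 3 E2-KO libraries, which at 3 counts per library allows up to 1.18, 1.29 and 1.74 CPM. WT had 2.24, 0.687 and 0.396 CPM and G12D 2.15, 0.660 and 0.915 CPM, mostly below those limits, so a difference was not detectable at this depth except at T1. G12D/E2-KO had 10.3, 3.98 and 50.01 CPM. Over the pooled libraries this was at least 29.1-fold higher than E2-KO, taken against 3 counts over the E2-KO group. The bound was 17.9 without G12D/E2-KO T3 or E2-KO T1 and 18.9 without E2-KO T2.

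In counts of members, 6 of 6 had G12D/E2-KO libraries entirely above the WT libraries. Of all 9551 genes tested in that contrast, 17.3% lay entirely above WT and 3.48% entirely below it. E2-KO lay entirely above WT for 2 members and, with 0 UMIs, entirely below it for Stfa2l1, beside 21.5% of all genes above and 4.68% below. G12D lay entirely above WT for Stfa3 alone, beside 6.44% of all genes above and 4.04% below. Libraries that do not overlap need not pass a test. At an adjusted p under 0.05, 2.74% of all genes were called with G12D/E2-KO, 1.82% as higher and 0.921% as lower. With E2-KO it was 3.42%, of which 2.26% higher and 1.16% lower, and with G12D 0.147%, of which 0.115% higher and 0.0314% lower. The members were chosen with these contrasts known, so nothing is read from these counts. All 6 passed the filter on low counts, which for the rarest members rested on the G12D/E2-KO libraries. The other 5 stefin A genes of the cluster (BC117090, Gm5416, Gm4758, 2010005H15Rik and Csta1) together had 70 UMIs in G12D/E2-KO granulocytes, against 5 in WT, 6 in G12D and 3 in E2-KO. BC117090 gave 39 of the 70. Csta1 and Gm4758 had 0 UMIs in granulocytes outside G12D/E2-KO.

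**Figure D2:**
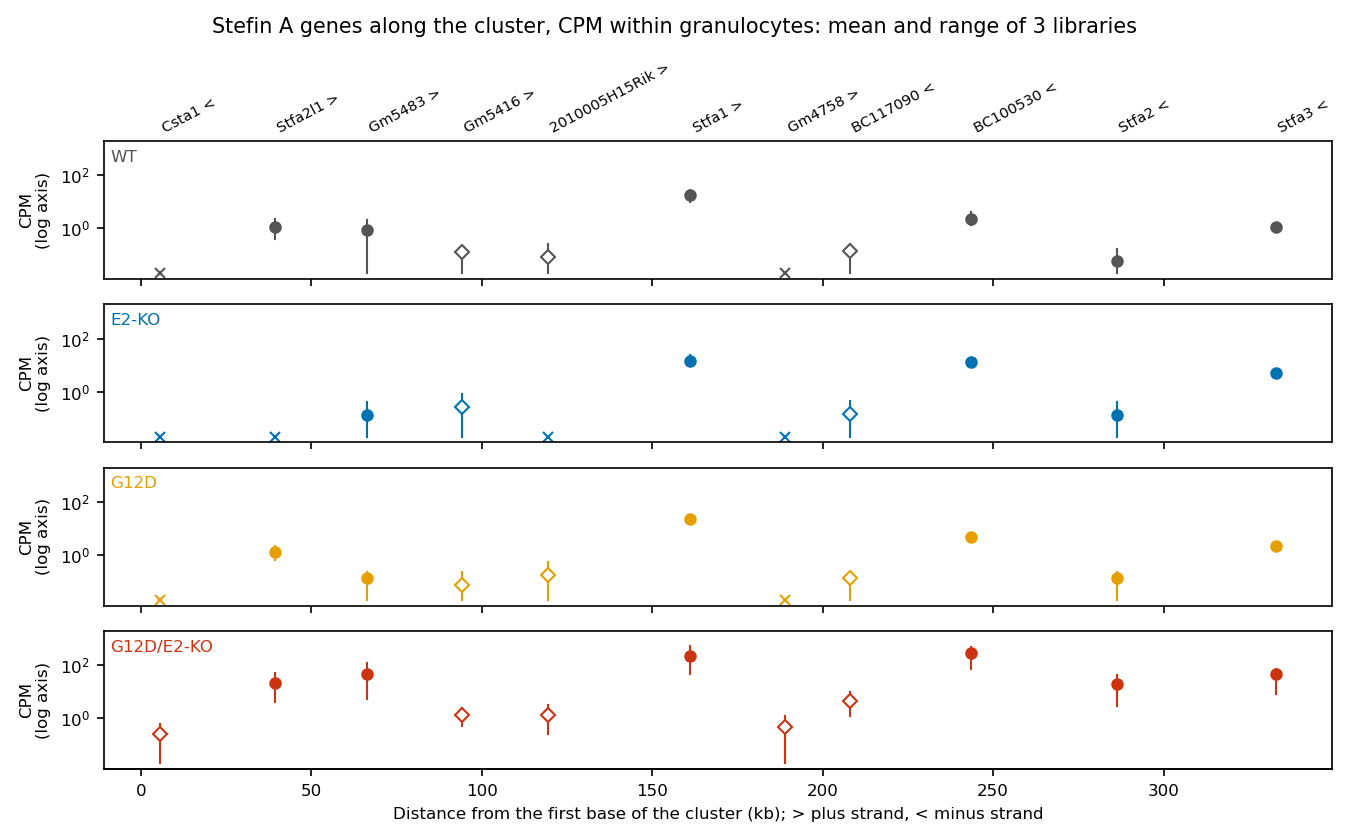
Level of the stefin A genes in granulocytes against distance from the first base of the cluster in kb, 1 row per genotype, in CPM on a log axis. Points are means and bars the range of the 3 libraries, filled circles are the 6 members, open diamonds the other stefin A genes, and crosses genes with 0 UMIs in all 3 libraries. The G12D/E2-KO row lies above the others along the whole cluster, and in E2-KO the higher levels are those of Stfa1, BC100530 and Stfa3.

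Over all cells of a library, the sum of the 6 genes was 4.57, 8.71 and 5.17 CPM in WT at T1, T2 and T3. It was 6.63, 2.92 and 3.64 CPM for E2-KO, 6.85, 9.85 and 10.2 CPM for G12D, and 173, 32.8 and 152 CPM for G12D/E2-KO. The E2-KO level was higher than WT at T1 only. These values also move with the share of granulocytes, which was lower in E2-KO, and the part of that share in them was not tested. The gap between G12D/E2-KO and WT remained at 37.8, 3.77 and 29.3 times. As deposited, the mean log2 ratio of G12D to WT over all cells was 1.83 in place of 0.58.

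The shares of Stfa1 and BC100530 among the stefin A UMIs split the genotypes by Ezh2, while those of the other 4 members did not. In granulocytes, Stfa1 gave 74.4% ± 13.7 of the stefin A UMIs in WT and 71.9% ± 8.59 in G12D, but 43.8% ± 5.37 in E2-KO and 31.7% ± 10.4 in G12D/E2-KO (SD, n = 3). BC100530 gave 9.39% ± 2.31 in WT and 15.3% ± 2.98 in G12D, but 39.6% ± 1.72 in E2-KO and 49.0% ± 9.79 in G12D/E2-KO. Stfa3 gave 5.50% in WT, 7.22% in G12D, 16.1% in E2-KO and 8.18% in G12D/E2-KO. Gm5483 gave 4.90% in WT and 5.59% in G12D/E2-KO, against 0.472% in G12D and 0.267% in E2-KO. Stfa2l1 gave 2% to 12.9% in the WT libraries and 2.15% to 3.67% in those of G12D/E2-KO. There were 0.146, 0.145 and 0.0933 BC100530 UMIs per Stfa1 UMI in WT, and 0.247, 0.149 and 0.257 in G12D. E2-KO had 0.758, 1.04 and 0.944, and G12D/E2-KO had 2.81, 1.53 and 0.936. The highest ratio with intact Ezh2, 0.257, was below the lowest ratio with the deletion, 0.758, although the sum of the 6 genes did not separate E2-KO from WT or G12D. Because the pair share part of their 3′ ends, the ratio compares genotypes and not the true abundance of each copy. As deposited, G12D T1 gave a ratio of 2.53, near that of the G12D/E2-KO library whose cells it shared.

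**Figure D3:**
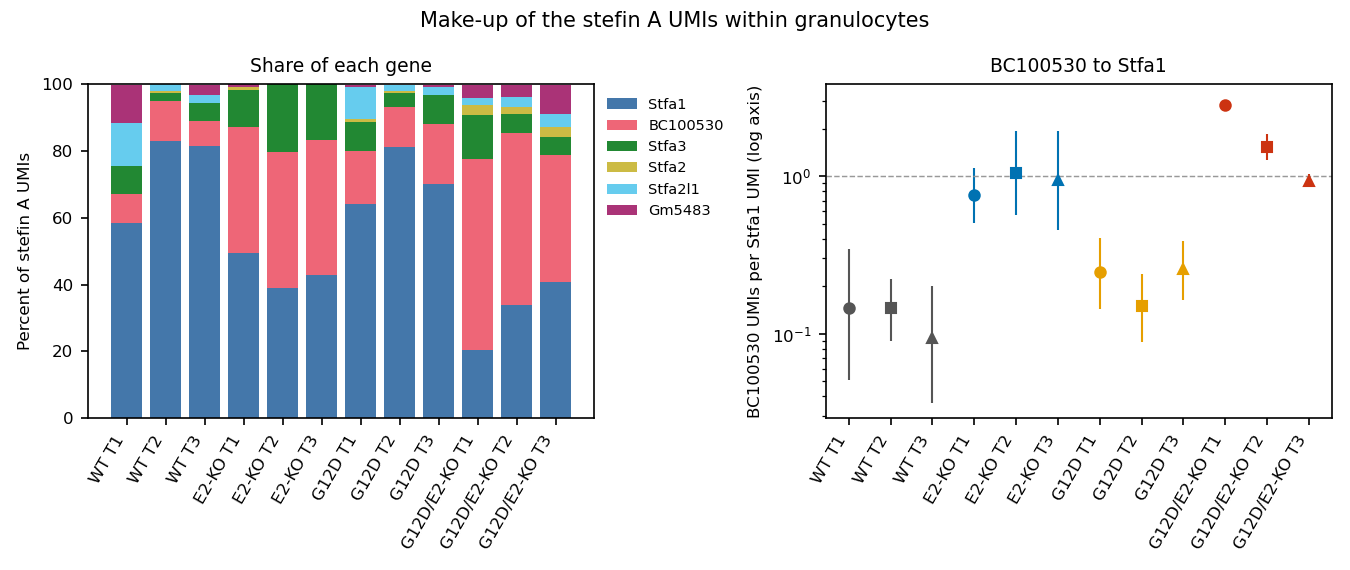
Left, share of the stefin A UMIs of granulocytes given by each of the 6 genes, in percent, 1 stacked bar per library. Right, BC100530 UMIs per Stfa1 UMI in each library on a log axis with exact 95% counting intervals and a dashed line at a ratio of 1, showing the 6 libraries with Ezh2 deletion at 0.758 or above and the 6 without it at 0.257 or below.

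The UMIs came almost entirely from the granulocyte gate. It held 90.9% to 97.1% of all stefin A UMIs in WT, 93.3% to 95.4% in G12D, 91.3% to 99.2% in E2-KO and 94.1% to 97.9% in G12D/E2-KO. Cells gated by the primary granule genes Mpo, Elane, Prtn3 and Ctsg, a marker sum and not a cell type, had a mean of 0.843 CPM in WT and 6.62 CPM in G12D/E2-KO. Erythroid cells had 0.113 CPM in WT, from 2 UMIs, and 3.90 CPM in G12D/E2-KO, from 20 UMIs. The level in both of these gates was thus also higher in G12D/E2-KO, and the source of these UMIs was not tested. The 33 monocytic cells of G12D/E2-KO held 2 UMIs, and its 208 B lymphoid cells held 0.

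**Figure D4:**
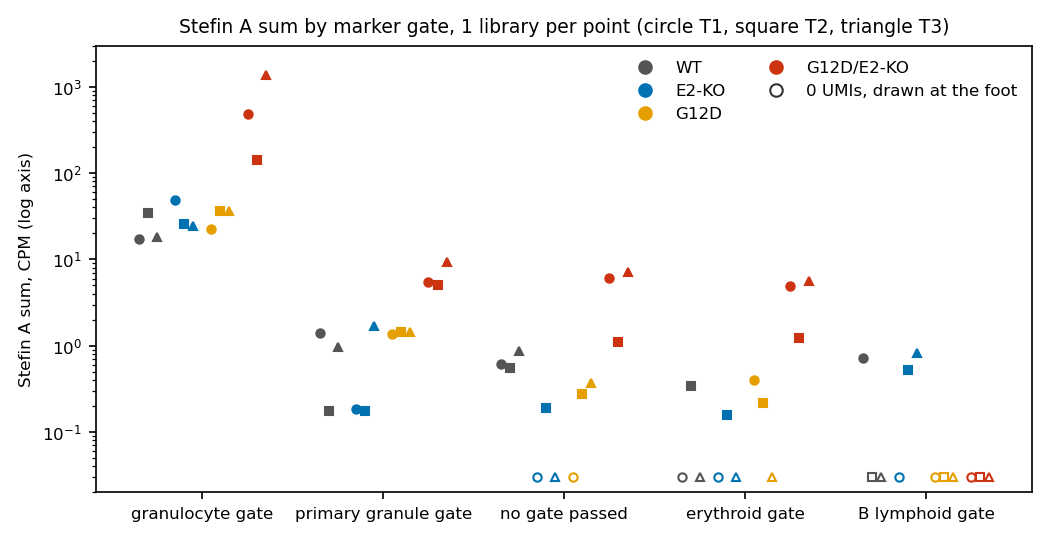
Summed level of the 6 genes by marker gate, in CPM on a log axis, 1 point per library grouped by genotype. Open points at the foot of the axis are libraries with 0 UMIs. In each genotype the granulocyte gate lies highest, at 17.4 to 49.1 CPM outside G12D/E2-KO and 143 to 1361 CPM within it.

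More granulocytes carried a stefin A UMI in G12D/E2-KO, and those that did carried more. The share of granulocytes with at least 1 UMI was 4.49% ± 0.934 in WT, 5.91% ± 1.15 in G12D, 7.38% ± 2.06 in E2-KO and 25.9% ± 15.2 in G12D/E2-KO (SD, n = 3). With each cell thinned to 1400 UMIs the shares were, in the same order, 2.26%, 2.88%, 3.18% and 17.9%. Among erythroid cells the share was 0% to 0.360% outside G12D/E2-KO and 0.704% to 3.61% in it, below the 12.3% to 42.4% of its granulocytes. After thinning, the erythroid share in G12D/E2-KO was 0.352% to 1.20%. Outside G12D/E2-KO a granulocyte with a UMI held on average 1.68 to 3.85 of them, and within it 12.2 at T1, 4.41 at T2 and 11.7 at T3.

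The transcripts were unevenly spread over the granulocytes. In G12D/E2-KO, 50% of the stefin A UMIs were in 1.20% of the granulocytes at T1, 0.943% at T2 and 4.66% at T3. That share was 0.525% to 1.15% in the WT libraries, 0.682% to 1.18% in G12D and 1.04% to 1.95% in E2-KO. These shares are limited by the number of UMIs, 42 to 200 per library outside G12D/E2-KO against 573 to 3769 in it, so they are not compared between genotypes. Cells with 10 or more stefin A UMIs numbered 63 of 1329, 15 of 1060 and 66 of 451, and held 84.3%, 61.1% and 80.9% of the UMIs. The same limit was reached by 6 of 2720 WT, 3 of 1391 E2-KO and 11 of 2998 G12D granulocytes. The richest single cell held 194 stefin A UMIs in G12D/E2-KO and 36 in WT. BC100530 was the leading gene in 51 of the 63 cells at T1 and 9 of 15 at T2, whereas at T3 Stfa1 led in 34 of 66, BC100530 in 26 and Gm5483 in 6. In WT, Stfa1 led in 5 of the 6.

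**Figure D5:**
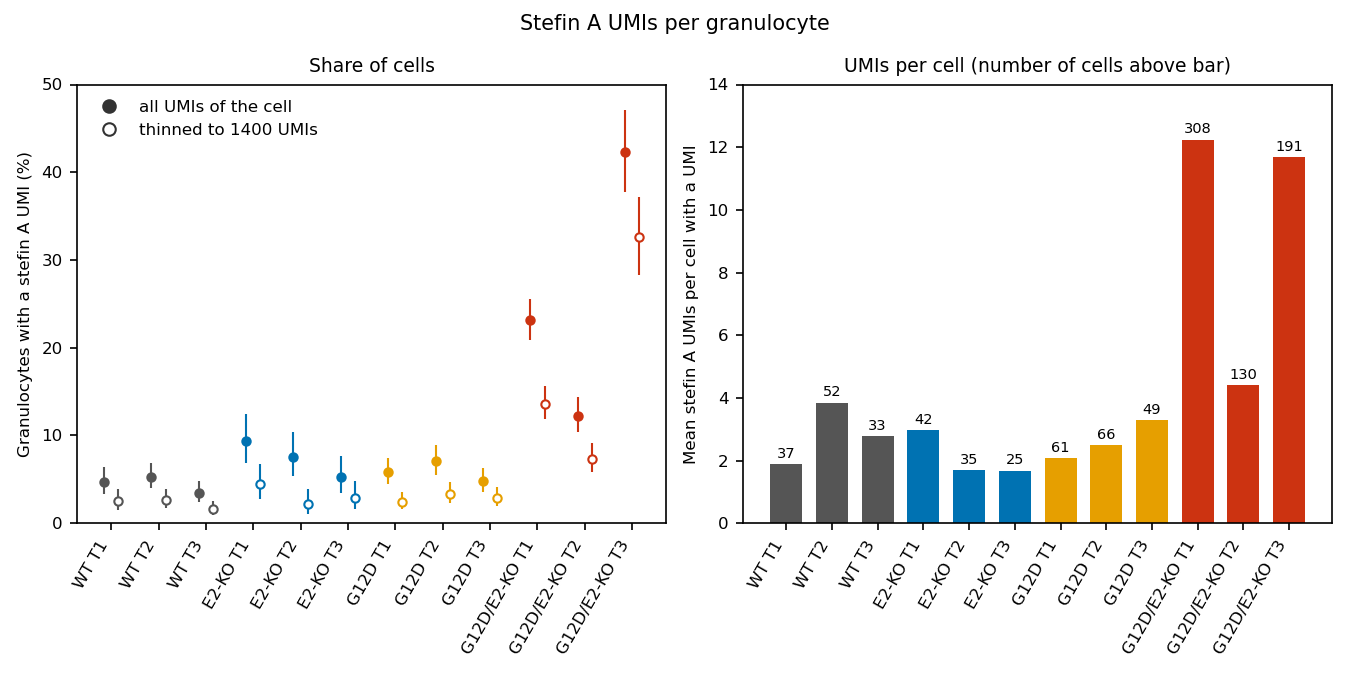
Left, percent of granulocytes with at least 1 stefin A UMI per library, as counted (filled) and after thinning each cell to 1400 UMIs (open), with exact 95% binomial intervals. Right, mean stefin A UMIs per granulocyte that has one, with the number of such cells above each bar, which is 12.2 and 11.7 in G12D/E2-KO at T1 and T3 and at most 4.41 in the other 10 libraries.

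In G12D/E2-KO the members were often found in the same cells. Granulocytes with UMIs of 2 or more members made up 0.216% to 1.33% of cells outside G12D/E2-KO and 8.50%, 2.74% and 23.9% in it. Of the G12D/E2-KO cells with a Stfa1 UMI, 69 of 127 at T1, 24 of 68 at T2 and 80 of 131 at T3 also had BC100530. The cells without Stfa1 had BC100530 in 9.48%, 4.13% and 14.4%. Of the cells with Stfa2, 28 of 35, 4 of 6 and 28 of 29 had BC100530, against 12.0%, 5.79% and 23.2% of the cells without it. Stfa3, whose 3′ end shared no window of 75 bases with another member, was joined by BC100530 in 55 of 95, 4 of 16 and 34 of 44 cells, against 10.4%, 5.84% and 22.6% of cells without Stfa3. Elsewhere such cells were few, but BC100530 was also more frequent in cells with Stfa1 than in those without. Of the cells with Stfa1, 12 of 82 in WT, 12 of 111 in G12D and 9 of 43 in E2-KO also had BC100530. The cells without Stfa1 had it in 14 of 2638, 29 of 2887 and 33 of 1348, in the same order. Of the cells with Stfa3, 0 of 13, 4 of 25 and 2 of 27 had BC100530, against 26 of 2707, 37 of 2973 and 40 of 1364 without Stfa3. Finding Stfa1 and BC100530 together was thus not particular to G12D/E2-KO. In G12D/E2-KO, cells with a stefin A UMI were somewhat deeper than those without, with medians of 6164 against 5467 UMIs at T1, 3974.5 against 3650 at T2 and 3315 against 3253 at T3.

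The order of the genotypes was also examined within strata of a late-gene level. Granulocytes were split by the summed level of 10 late neutrophil genes at the tertiles of the WT cells, 1.64 and 4.24 per 10000 UMIs. Few UMIs decide the stratum of a cell at these limits, and the high stratum had the lowest median depth in each of the 12 libraries. In WT T1 its cells held a median of 4053 UMIs, against 4775 and 5102 in the low and middle strata. The strata thus differ in depth and do not match maturity. Sums of the 6 genes in the low, middle and high stratum were 422, 475 and 527 CPM in G12D/E2-KO at T1, 169, 159 and 56.7 CPM at T2, and 1251, 1046 and 1770 CPM at T3. In the other 9 libraries they reached at most 59.5, 40.9 and 51.8 CPM in the 3 strata. G12D/E2-KO was thus higher within each, by the least in the high stratum at T2. The high stratum held 33.4% ± 5.54 of WT, 34.1% ± 14.1 of G12D, 24.3% ± 7.94 of E2-KO and 37.4% ± 10.8 of G12D/E2-KO granulocytes (SD, n = 3). Within G12D/E2-KO, the cells with 10 or more stefin A UMIs had 0.815, 0.314 and 2.38 times the late-gene level of cells without any, at T1, T2 and T3. The late-gene ratio thus differed in direction between the libraries, but it rests on little. At T2 the cells with 10 or more were 15, with 130 CPM of late genes. At T1 and T3 Retnlg, 1 of the 10 late genes, gave most of the level in such cells, 765 of 1085 CPM and 1391 of 1755 CPM. Primary granule genes stood at 0.934, 0.221 and 0.366 times, and secondary granule genes at 0.968, 1.12 and 1.12 times.

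Primary granule genes were compared in the same gate by their levels, with no test. Elane, the neutrophil elastase gene, had 1161 ± 362 CPM in WT, 1618 ± 561 in G12D, 3462 ± 1536 in E2-KO and 2075 ± 190 in G12D/E2-KO (SD, n = 3). The E2-KO and G12D/E2-KO libraries lay above those of WT for 4 of the 4 genes Mpo, Elane, Prtn3 and Ctsg, beside 21.5% and 17.3% of all genes. The G12D libraries also lay above those of WT for Mpo and Ctsg, beside 6.44% of all genes, and overlapped with them for Elane and Prtn3. E2-KO had the highest mean of Elane. Its stefin A sum was 24.3 to 49.1 CPM, overlapping with the 22.5 to 36.8 CPM of G12D. The part of the primary granule genes in the stefin A levels was not tested.

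Cystatins outside the cluster, cathepsins and other lysosomal proteases were tested as a list of 21 genes over granulocyte counts. The list mixes papain-like cysteine proteases, the targets of stefins, with serine and aspartic proteases, which are not. Of the 21 genes, 17 passed the filter on low counts. In edgeR's quasi-likelihood test with Benjamini-Hochberg adjustment over 9551 genes, 1 of 17 was called against WT with E2-KO, 0 with G12D and 0 with G12D/E2-KO, beside 3.42%, 0.147% and 2.74% of all genes. Without adjustment 4, 3 and 3 had a p under 0.05, beside 18.3%, 4.67% and 17.7% of all genes. DESeq2 called 2, 0 and 1, beside 2.69%, 0.338% and 2.14% of the genes it tested. The called gene was Ctsg, which encodes cathepsin G, a serine protease of primary granules and not a papain-like target. It had 330 ± 108 CPM in E2-KO and 118 ± 7.46 in WT (SD, n = 3) and was higher at 3 of 3 time points, a log2 fold change of 1.29 ± 0.18 (SE) with an adjusted p of 0.000306. In G12D/E2-KO its log2 fold change was 0.38 ± 0.17 with an adjusted p of 0.25.

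Cst7, which encodes cystatin F, an inhibitor of cathepsins inside lysosomes and granules, stood at 33.2 CPM in WT and 44.8 in G12D, against 79.1 in E2-KO and 78.7 in G12D/E2-KO. The log2 fold change against WT was 1.09 ± 0.29 (SE) with E2-KO and 1.001 ± 0.29 with G12D/E2-KO, with adjusted p of 0.079 and 0.10 in edgeR and 0.00586 and 0.00905 in DESeq2, so the call depends on the tool. The target proteases Ctsb and Ctsh, the aspartic protease gene Ctsd and the inhibitors Cstb and Cst3 had log2 fold changes between -0.35 and 0.16 in the 3 contrasts and were not called. Ctss, which encodes cathepsin S, stood at 5.10 ± 4.20 CPM in WT (SD, n = 3) and 1.90 in G12D, against 2.30 in E2-KO and 2.26 in G12D/E2-KO, with log2 fold changes against WT of -1.35, -1.18 and -1.02 in that order and edgeR adjusted p of 0.92, 0.34 and 0.33. The WT mean of Ctss rests on WT T1, at 9.94 CPM, and was 2.67 CPM without it. Ctsl, which encodes cathepsin L, stood at 3.21 ± 1.59 CPM in WT, with log2 fold changes in the same order of -0.97, 0.29 and 0.33 and edgeR adjusted p of 0.88, 0.73 and 0.65. Both genes were low and were not called. Cstb, which encodes the related stefin B, had 61.9 CPM in WT and 69.4 CPM in G12D/E2-KO. Its edgeR log2 fold change was -0.01 ± 0.17 with an adjusted p of 0.98. The fit rescales the libraries by TMM and CPM do not, and on the CPM scale the median gene had a log2 ratio of 0.21. The median log2 fold change of the list was -0.04 with G12D, 0.08 with E2-KO and 0.09 with G12D/E2-KO, and that of all genes lay between -0.00 and 0.01.

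Genes beside the cluster were tested in the same fit. Of 18 protein-coding genes within 500 kb, 12 passed the filter and 0 were called in any of the 3 contrasts by edgeR or DESeq2, beside 3.42% of all genes called by edgeR with E2-KO, 0.147% with G12D and 2.74% with G12D/E2-KO. At these shares under 1 call would fall on 12 genes. An unadjusted p under 0.05 was reached by 2, 0 and 3 of the 12, beside 18.3%, 4.67% and 17.7% of all genes. Their log2 fold changes ran from -1.29 to 0.71, from -0.38 to 0.59 and from -0.66 to 1.28 respectively. Parp9, an interferon-inducible gene, came nearest in G12D/E2-KO at 1.04 ± 0.33 (SE) with an adjusted p of 0.093. Ccdc58, the nearest tested neighbour at 27.8 kb before the cluster, had 0.30 ± 0.20 with an adjusted p of 0.46. On the other side Casr, the calcium-sensing receptor gene at 38.3 kb, had 0 UMIs.

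The genes whose level varied most like the summed stefin A genes over the 12 libraries were taken from the 1753 with enough counts, by the root mean square difference of log2 levels after centring. The nearest were H1f0, Gm8730, Ly6e, Sdf2l1, Chchd7, Hspa5, Slc6a13, App, Rpl6 and Cst7, at distances of 1.43 to 1.64, where the spread of the stefin A sum itself was 1.89. None lay close to it by this measure, which weighs the size of the changes as well as their pattern. No correlation was computed. H1f0, which encodes the linker histone H1.0, had 22.8 to 53.4 CPM in WT, 32.7 to 86.2 in G12D, 102 to 240 in E2-KO and 194 to 231 in G12D/E2-KO. It was high in both genotypes with Ezh2 deletion, the order seen for BC100530, but without the further step from E2-KO to G12D/E2-KO. Chchd7 had 25.9 to 33.3, 25.8 to 31.9, 72.4 to 78.1 and 63.5 to 91.5 CPM in the same order, with no overlap between the genotypes with and without the deletion. Gm8730 and Rpl6 have near-identical copies elsewhere in the genome, so their counts are uncertain.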

How the data were processed

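The authors deposited 1 table of raw UMI counts per cell and library (10x Genomics 3′ chemistry, Cell Ranger, mm10), after removing cells with a high mitochondrial share and doublets called by Scrublet. The annotation release is not given in the sources used here. Cells of G12D T1 that matched a G12D/E2-KO T1 cell (cosine similarity of log counts over 8000 genes of at least 0.9, the 300 most abundant genes left out) were dropped. CPM are UMIs per 1000000 over 27998 genes of a library or of its gated cells. Intervals of counts are exact Poisson, those of shares exact binomial (95%), and cover counting error only.

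Granulocyte counts were summed per library and tested with edgeR 4.0.16 (filterByExpr, TMM, quasi-likelihood test with robust dispersions) over all 12 libraries, with the time point as a covariate and Benjamini-Hochberg adjustment over all genes. P-values measure only the spread between these libraries. The same steps, tested on simulated data for G12D/E2-KO against WT (9332 genes), recovered 94% of 100 genes changed 2-fold and 99% of 100 changed 4-fold. Of the 203 calls 10 were false. The changed genes were drawn only from the more abundant ones, and no effect of the time point was simulated. These shares therefore do not apply to low genes such as Ctss and Ctsl. DESeq2 1.42.0, other filters, gates and sample sets, and each library left out were alternatives. Genes were named as members, as other genes of the cluster, as the most abundant or called genes of the cystatin and cathepsin list, as the nearest or closest to a call among flanking genes, and as the 10 most similar profiles. Cst7, Ctss, Ctsl and H1f0 were singled out after their values were seen. The members and lists were chosen with earlier results of these data known. Sequences came from RefSeq (GRCm38.p6) and GENCODE vM21, read with Python 3.11.15.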

Additional observations from a re-analysis of the deposited data

Results flagged for a closer look

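The differences of Stfa2l1 and Gm5483 between libraries with and without the Ezh2 deletion had opposite signs in the 2 NRas backgrounds. In granulocytes, the Stfa2l1 level of E2-KO minus WT was -1.11 CPM on average, lower at 3 of 3 time points, while G12D/E2-KO minus G12D was 20.2 CPM, higher at 3 of 3. Over all cells the same differences were -0.303 and 3.18 CPM for Stfa2l1, and -0.237 and 6.95 CPM for Gm5483. The difference between the backgrounds was not tested, and the E2-KO side rests on libraries with 0 or 1 UMI, so for Stfa2l1 in granulocytes a difference from WT was detectable at T1 alone. Over all cells the values also move with the share of granulocytes, 15.7% to 18.5% in E2-KO against 33.4% to 39.8% in WT, and the part of that share was not tested.

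The G12D T1 cells that also occurred in the G12D/E2-KO T1 table entered only the values given as deposited. Their 1251 granulocytes held 3625 stefin A UMIs, or 480 CPM, above the WT libraries, and 23.7% of them had a stefin A UMI.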

How the results depend on the processing

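Numbers of genes called in granulocytes depended on the settings (E2-KO, G12D and G12D/E2-KO against WT: 327, 14 and 262). With no filter on low counts they were 640, 135 and 653, and with the cells as deposited 213, 6 and 126. Fitting only the libraries of the 2 genotypes gave 629 for E2-KO and 87 for G12D, DESeq2 gave 31 for G12D, a gate of 500 gave 7 for G12D and a gate of 2000 gave 401 for G12D/E2-KO. Leaving out 1 library gave 83 to 458, 5 to 34 and 81 to 396. The E2-KO count was lowest without WT T2 (83), WT T3 (84), E2-KO T1 (102), E2-KO T3 (143), G12D T1 (202) and G12D T2 (212). The G12D/E2-KO count was 105 without WT T2, 81 without WT T3, 396 without G12D/E2-KO T3 and 132 without G12D/E2-KO T2. For G12D it was 5 without WT T1, 6 without WT T3, 8 without E2-KO T1 or T2, 7 without G12D T1, 8 without G12D T3 and 34 without G12D/E2-KO T3. The cause was not tested.

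Without the time point as a replicate block, 202, 8 and 161 genes were called. Time points share a number and no animals as far as the labels say. Libraries of the same time point had correlated deviations in 10 of 18 pairs (r over 0.1, range -0.31 to 0.62). For 8 of 12 libraries the mean correlation with libraries of their own time point was higher than with those of either other time point.

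Of the cystatin and cathepsin list, 2 genes were called in E2-KO by DESeq2, with no filter or with the 2 genotypes alone, and 1 to 2 with a library left out. In G12D/E2-KO, 1 was called by DESeq2 or with no filter, and 0 to 1 with a library left out, 1 without G12D/E2-KO T1. In G12D 0 were called under each of these settings.

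The mean log2 ratio of the stefin A sum in granulocytes of G12D/E2-KO to WT stayed between 3.42 and 5.50 with a library left out, and was 3.51 without BC100530, an alternative chosen after seeing the data. That of E2-KO ranged from -0.01 to 0.96 and was -0.09 without BC100530, and over all cells it ranged from -1.04 to 0.01. That of G12D was 1.71 as deposited in place of 0.49, and over all cells 1.83 in place of 0.58. No called value reversed. Counts of 0 to 47 UMIs per library limit the single members outside G12D/E2-KO, Stfa1 apart.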
